A study of Mus musculus with 12 samples.

Results

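The data describe how the response of colonic crypts to loss of p53 depended on the form of CBP that the mice carried. For each gene, the log2 change on p53 deletion in CBPAA crypts minus that in CBPWT crypts was computed from the raw counts of all 12 libraries and is called the interaction. A positive interaction means that the ratio of p53-deleted to p53-floxed crypts was higher in CBPAA mice, and a negative one that it was lower. The interaction was tested for 14610 genes with enough reads, of 55471 counted. Crypts of 3 mice in each of 4 groups were sequenced, with 1 library per mouse, in female C57BL/6J mice of 8 weeks by the study's general description. The groups were CBPWTp53-floxed, CBPAAp53-floxed, CBPWTp53ΔIEC and CBPAAp53ΔIEC. In CBPAA mice a pair of phosphorylated serines of CBP was replaced with alanines in every cell of the body, in a knock-in allele. The study's methods give its embryonic stem cells in one place as 129 and in another as C57BL/6N. All 12 mice carried floxed p53 alleles, and in the ΔIEC mice Villin-Cre, which is active in intestinal epithelial cells, removed them. The floxed mice carried no Cre, so that Cre and the loss of p53 cannot be told apart within either CBP genotype.

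CBP, the product of Crebbp, is a histone acetyltransferase and coactivator that many transcription factors share, p53 and NF-κB among them, and phosphorylation by IKKα shifts its preference between these partners. p53 halts the cell cycle through targets such as Cdkn1a, which encodes p21, and genes of DNA replication and mitosis are repressed when p21 keeps RB family proteins and the DREAM complex on their promoters. In the colon, stem cells at the crypt base divide to renew the epithelium, and their daughters mature into colonocytes, goblet cells, enteroendocrine cells and tuft cells.

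The libraries held between 11177430 and 18029125 reads on genes, and those of 1 group correlated with each other at r of 0.9518 to 0.9916. Levels are given as CPM, read counts scaled to a common library size, and summed markers as TPM, the deposited level scaled also to gene length. The crypts were of epithelium, with 18300 to 26300 TPM of 12 epithelial genes against 24.9 to 56 TPM of 25 leukocyte genes, 5.22 to 10.1 TPM of 18 stromal genes and 3.26 to 5.18 TPM of 12 endothelial genes, 2 of which were at 0 in all libraries. Genes that define the small intestine, and not the colon of the label, were high in some libraries. The summed TPM of 9 α-defensin genes, which are made by Paneth cells of the small intestine, was 19600 in CBPWTp53ΔIEC replicate 1, 4520 in CBPAAp53ΔIEC replicate 3, 2210 in CBPAAp53ΔIEC replicate 1 and 970 in CBPAAp53-floxed replicate 2. It was at most 32.8 in the other 8 libraries and 0 in all 3 of CBPWTp53-floxed. The summed TPM of 31 small intestine enterocyte genes was 8020 in CBPWTp53ΔIEC replicate 1, 5040 in CBPAAp53ΔIEC replicate 3, 3750 in CBPAAp53-floxed replicate 2 and at most 2270 elsewhere. Results are also given without these 3 libraries, which leaves 2 mice in 3 of the groups, and counts also without all 4 defensin libraries, which leaves CBPAAp53ΔIEC with 1 library that is assumed to vary like the other groups. Both settings were chosen after seeing the data. Xist, which silences the second X chromosome of females, had 4.61 CPM in CBPAAp53-floxed replicate 1 and 509 to 1140 CPM elsewhere, and 4 genes of the Y chromosome had 0 reads in that library.

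**Figure D1:**
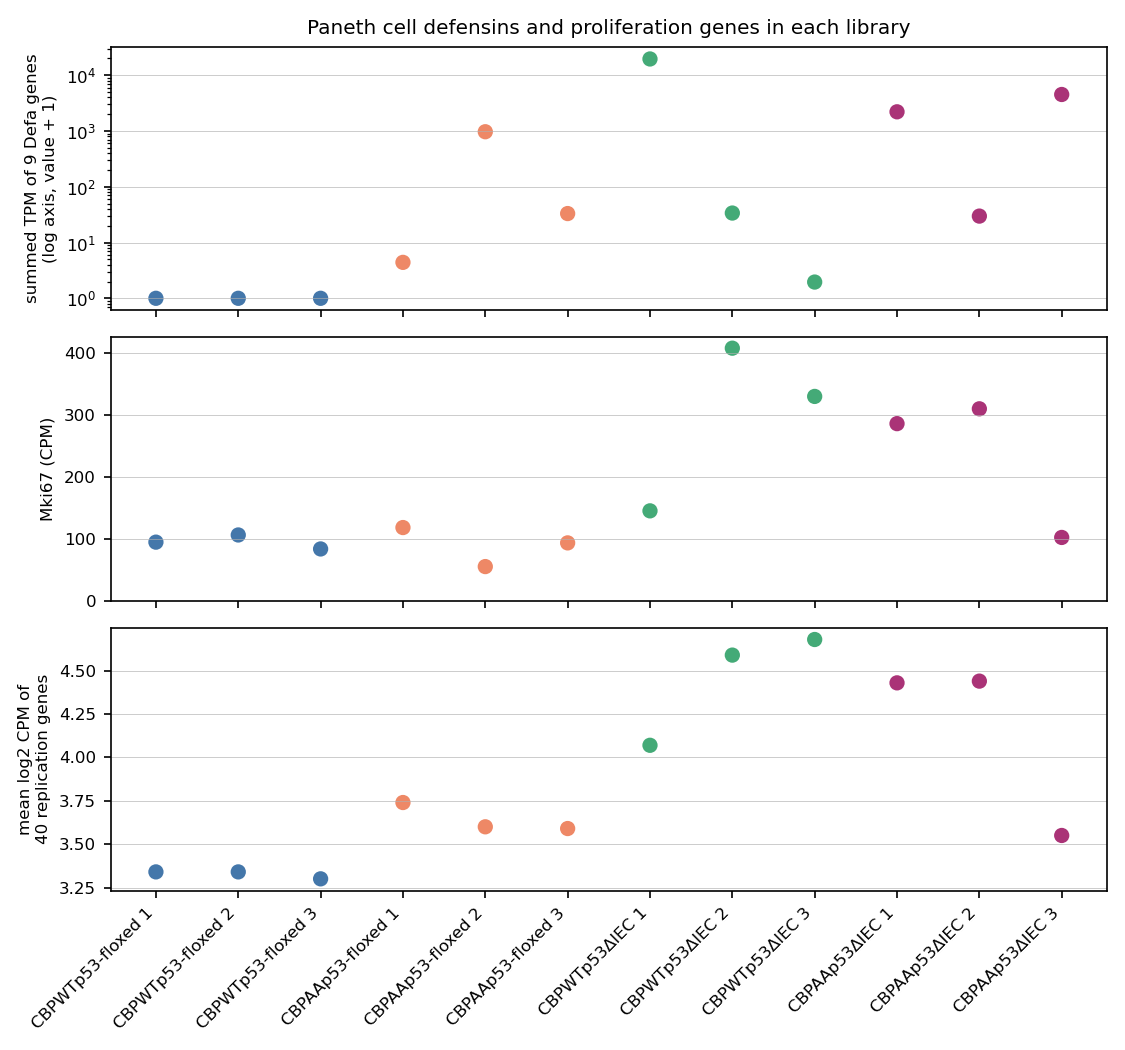
Summed TPM of 9 Paneth cell α-defensin genes (Defa, top, log axis of the value plus 1), CPM of Mki67 (middle) and mean log2 CPM of 40 DNA replication genes (bottom, axis not from 0), with 1 point for each of the 12 libraries, coloured by group. Defensin sums reach 19600 TPM in CBPWTp53ΔIEC replicate 1, and this library and CBPAAp53ΔIEC replicate 3 have the least Mki67 of the 6 p53-deleted libraries, 145 and 102 CPM against 286 to 408.

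Deletion was present in both genotypes. Trp53, which encodes p53, had 39.3, 44.6 and 45.6 CPM in CBPWTp53-floxed and 10.4, 5.01 and 5.76 CPM in CBPWTp53ΔIEC crypts. It had 51, 52.6 and 43.5 CPM in CBPAAp53-floxed and 7.66, 7.1 and 9.74 CPM in CBPAAp53ΔIEC crypts. The fall was -2.64 in CBPWT and -2.58 in CBPAA crypts on the log2 scale, and the interaction was 0.05 (standard error 0.30, adjusted p = 0.955 from edgeR). Crebbp itself had an interaction of 0.37 (standard error 0.18, adjusted p = 0.501), with 38.1 to 57.6 CPM over the 12 libraries. With an offset for gene length, described below, its interaction was 0.08.

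Which genes responded to p53 deletion differently in the 2 CBP genotypes was asked with edgeR's quasi-likelihood test. With a cutoff of 0.05 on the adjusted p and of 0.5 on the size of the log2 interaction, 1 of 14610 genes was called (0.00684%). At an unadjusted p under 0.05, 731 genes had a positive (5.00%) and 771 a negative interaction (5.28%), and the median over all genes was -0.02. DESeq2 called 30 of 27137 genes (0.111%), of which 12 were α-defensins and 16 belong to the 20 genes with the smallest p named below. Without the 3 small intestine libraries edgeR called 6 of 14752 genes (0.0407%), with 685 positive (4.64%) and 694 negative (4.70%) at an unadjusted p under 0.05, and without the 4 defensin libraries it called 35 (0.230%). The single call was lost when any of 9 of the 12 libraries was left out, namely each CBPWTp53-floxed and each CBPAAp53ΔIEC library, CBPAAp53-floxed replicates 2 and 3 and CBPWTp53ΔIEC replicate 3 (0 genes in each of these fits).

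The called gene was Gm10736, a processed pseudogene on chr13:111593534-111593611 of GRCm38, minus strand. Its level was 10.9, 11.3 and 10.4 CPM in CBPWTp53-floxed and 18.5, 14.8 and 16.9 CPM in CBPWTp53ΔIEC crypts. In CBPAA mice the order was the opposite, with 18, 22.2 and 26.7 CPM in p53-floxed and 10.4, 11 and 10.1 CPM in ΔIEC crypts. The groups did not overlap within either genotype. The response was 0.62 in CBPWT (adjusted p = 0.0391) and -1.08 in CBPAA crypts (adjusted p = 0.0182), and the interaction -1.71 (standard error 0.21, adjusted p = 0.0222). Over the alternatives run the interaction lay between -1.84 and -1.56, and its adjusted p between 1.42e-08 and 0.176. The pseudogene is shown because its 78 bases were identical over their whole length to a stretch of the transcript of Rpl41, a ribosomal protein gene, so that reads of either could be counted for the other and the value is uncertain.

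Gm10736: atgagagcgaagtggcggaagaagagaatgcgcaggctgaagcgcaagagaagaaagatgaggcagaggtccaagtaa

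Rpl41 itself had 918 to 1400 CPM over the 12 libraries and an interaction of -0.13 (standard error 0.23, adjusted p = 0.836).

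The 10 positive and 10 negative interactions with the smallest p, among genes of at least 1 CPM on average, were read by level. Apart from Gm10736 none passed the adjusted p in edgeR (0.388 to 0.482), and their values are given as a description. In all 10 positive genes the mean CPM of CBPAAp53-floxed and of CBPWTp53ΔIEC crypts lay below that of the CBPWTp53-floxed and CBPAAp53ΔIEC crypts, and in 9 of the 10 negative genes above both. In the same genes p53 deletion had opposite signs in the 2 genotypes. An interaction of this size favours such crossing by its definition, and the count is no separate result. Without the 3 small intestine libraries all 20 kept their sign and an unadjusted p under 0.05.

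Of the 10 genes with a positive interaction, 5 had no overlap between the 6 libraries of the 2 single-change groups, CBPAAp53-floxed and CBPWTp53ΔIEC, and the other 6. These were Gm44292, Arhgap20, Plagl1, Klhl42 and Peg3. The choice by a small p of the interaction favours such a separation, and its share over all genes was not computed. Arhgap20, which encodes a GTPase-activating protein, lies on chr9:51765337-51853856 of GRCm38 and has exons that overlap Arhgap20os on the opposite strand. It had 54.3, 59 and 66.3 CPM in CBPWTp53-floxed, 40.5, 32 and 38.5 in CBPAAp53-floxed, 28.7, 41.8 and 43.5 in CBPWTp53ΔIEC and 47.7, 57.6 and 61.8 in CBPAAp53ΔIEC crypts. Its level thus fell on p53 deletion in CBPWT crypts (-0.65, adjusted p = 0.0419 from edgeR) and had a change of 0.59 in CBPAA crypts (adjusted p = 0.32). The interaction was 1.25 (standard error 0.22, unadjusted p = 8.95e-05), and 0.92 without the 3 small intestine libraries. With the length offset it was 0.98.

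Klhl42, an adaptor of cullin ubiquitin ligases, had the same order of groups. It had 26, 28.1 and 28.4 CPM in CBPWTp53-floxed and 13.8, 18.4 and 19 CPM in CBPWTp53ΔIEC crypts. In the CBPAA genotype it had 18.4, 15 and 20.4 CPM with p53 floxed and 23.3, 26.8 and 21.8 CPM with p53 deleted. It fell in CBPWT crypts by 0.68 on the log2 scale (adjusted p = 0.034 from edgeR), and the interaction was 1.11 (standard error 0.21). Plagl1 and Peg3 are imprinted genes of zinc-finger proteins, and exons of Plagl1 overlap Gm27741 on the opposite strand. The interaction was 1.73 for Plagl1 and 1.41 for Peg3, at 1.43 to 4.63 and 2.67 to 7.08 CPM over the 12 libraries. With the length offset the interactions were 1.57 and 1.10. Gm44292, a transcript with no assigned function, had an interaction of 1.91 at 1.52 to 4.22 CPM.

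Nrp2, a co-receptor for semaphorins and VEGF, had 91.7, 100 and 115 CPM in CBPWTp53-floxed, 64.4, 72.8 and 65 in CBPAAp53-floxed, 70.7, 80.1 and 79.8 in CBPWTp53ΔIEC and 93.5, 108 and 75.6 in CBPAAp53ΔIEC crypts. Only CBPAAp53ΔIEC replicate 3, one of the 3 small intestine libraries, lay among the libraries of the low groups. The interaction was 0.87 (standard error 0.18, edgeR adjusted p = 0.481), and without those 3 libraries it was 1.00 (adjusted p = 0.0233). With the length offset it was 0.59 (edgeR adjusted p = 0.5). The remaining genes were Lrat, which esterifies retinol, with 1.10, Ncoa4, the receptor that carries ferritin to lysosomes, with 0.85, Gpr35, a G protein-coupled receptor, with 0.82, and Mylip, a ubiquitin ligase for the LDL receptor, with 0.80. In CBPWT crypts all of these 4 genes fell on p53 deletion, by 0.80, 0.58, 0.66 and 0.69 on the log2 scale, and in CBPAA crypts none was called, with changes of 0.30, 0.27, 0.16 and 0.11.

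Of the 10 genes with a negative interaction, Gm10736, Smim33 and Rfc3 had no overlap between the single-change groups and the other 6 libraries. As in the positive genes, the choice by p favours this separation. Smim33, a small membrane protein gene, had 19.8, 19.1 and 19.4 CPM in CBPWTp53-floxed and 24.3, 30.9 and 29.5 CPM in CBPWTp53ΔIEC crypts. The CBPAA libraries had 24.9, 22.9 and 27 CPM with p53 floxed and 21.2, 19.5 and 16.6 CPM with p53 deleted. It rose in CBPWT crypts (0.54, adjusted p = 0.0373 from edgeR) and was at -0.38 in CBPAA crypts (adjusted p = 0.322). The interaction was -0.92 (standard error 0.18, adjusted p = 0.388) and -0.98 without the 3 small intestine libraries (adjusted p = 0.0258). Its exons overlap those of Ecscr on the opposite strand, and whether reads were counted by strand is not given in the sources used here.

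Rfc3, a subunit of the clamp loader that places PCNA on replicating DNA, had 8.35, 7.84 and 8.78 CPM in CBPWTp53-floxed and 13.9, 12.9 and 11.8 CPM in CBPWTp53ΔIEC crypts. In CBPAA crypts the p53-floxed libraries, at 11.9, 12.3 and 11.6 CPM, lay above all CBPWTp53-floxed libraries. The CBPAAp53ΔIEC libraries had 10.1, 10.9 and 9.95 CPM. Rfc3 rose in CBPWT crypts (0.63, adjusted p = 0.0289 from edgeR), its change in CBPAA crypts was -0.21 (adjusted p = 0.482), and the interaction was -0.84 (standard error 0.18). Rnaseh2a, the catalytic subunit of the enzyme that removes ribonucleotides from DNA, had a smaller interaction of -0.61. Its exons overlap those of Prdx2 on the opposite strand and Gm49661 on the same strand. Mrps28, a protein of the mitochondrial ribosome, had -0.86 and Pet100, an assembly factor of cytochrome c oxidase whose exons overlap Pcp2 on the opposite strand, -1.08. Gadd45g, a stress-inducible gene, had -1.52 at 2.69 to 8.83 CPM, and Acta1, skeletal muscle actin, -1.29 at 5.9 to 15.3 CPM. Cyp4f15, a fatty acid hydroxylase, had -3.06, a value that rests on at most 0.269 CPM in CBPWTp53-floxed crypts.

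**Figure D2:**
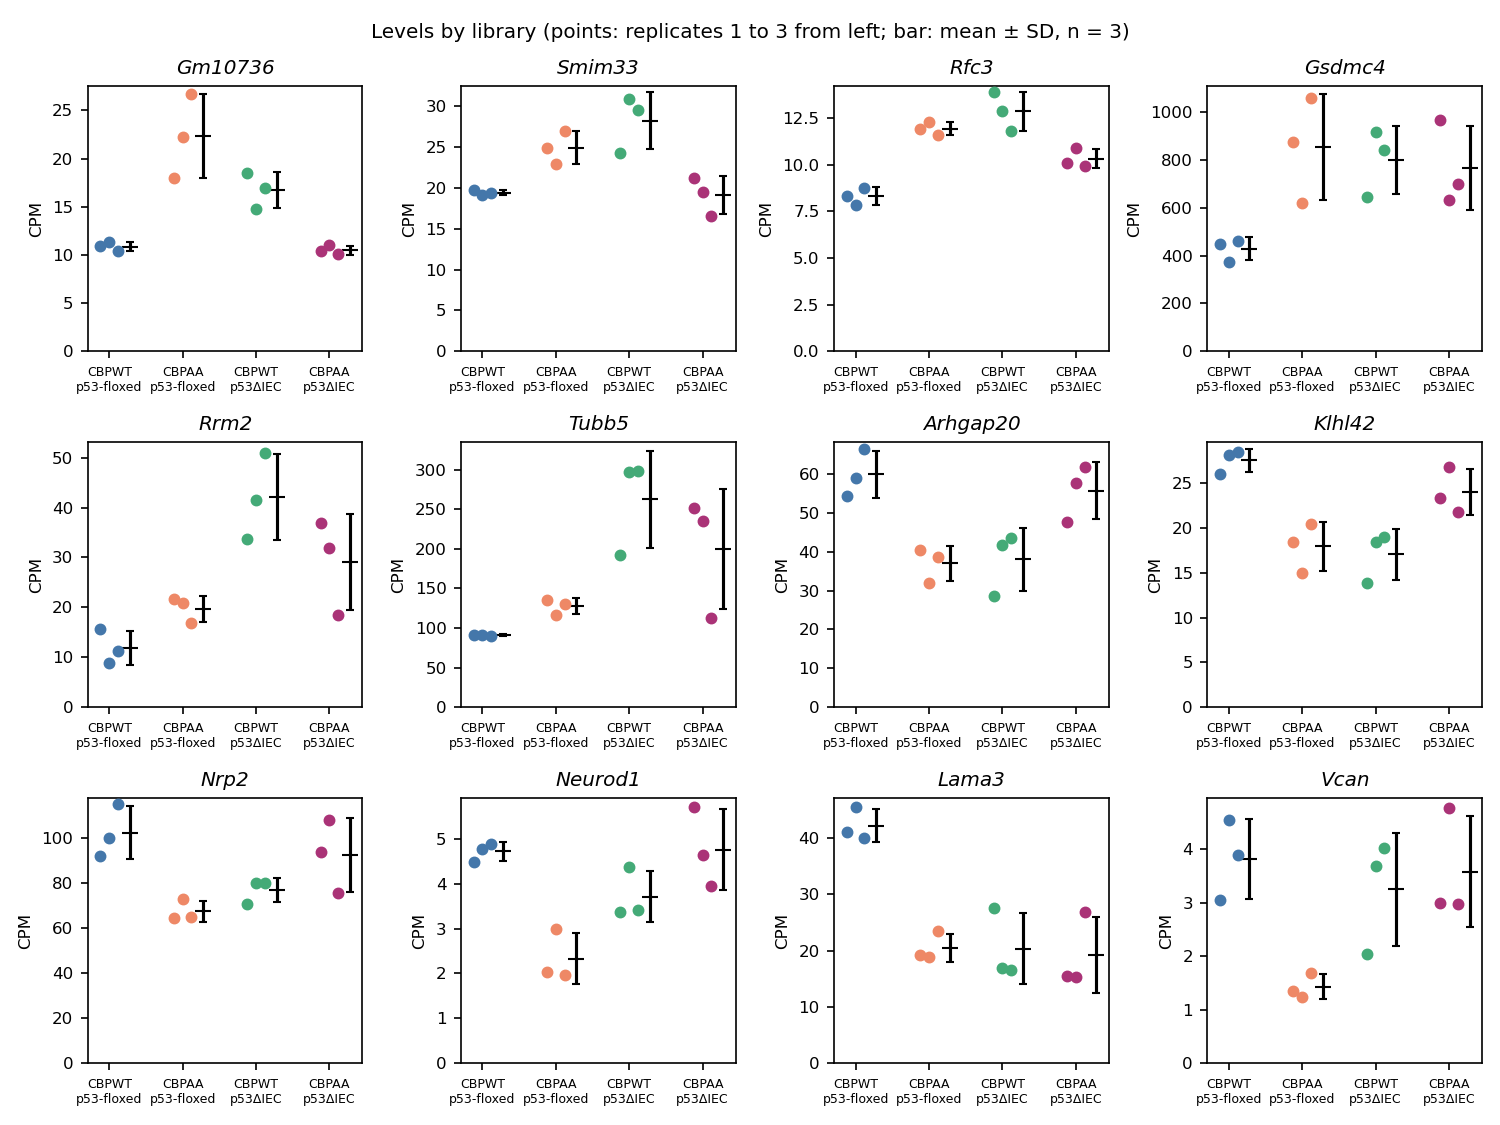
CPM (vertical axes, linear from 0) of 12 genes in the 12 libraries, 1 point per library, with the bar at the mean and its line at ± 1 SD of the 3 libraries of each group. In Gm10736, Smim33 and Rfc3 the CBPAAp53-floxed and CBPWTp53ΔIEC points lie above those of the other 2 groups, and in Arhgap20 and Klhl42 below them.

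Genes of DNA replication had mostly negative interactions. Of 40 genes of the replication fork, its nucleotides and its licensing, 37 had a negative interaction, against 7668 of 14610 genes, and the median was -0.607 against -0.02 over all genes. None was called in the interaction, while 15 had an unadjusted p under 0.05, all negative (5.28% of all genes). In CBPWT crypts 30 of the 40 rose on p53 deletion (2.29% of all genes at this cutoff), with a median of 1.15. In CBPAA crypts none passed the cutoff (0.00%) and the median was 0.554. With the 3 small intestine libraries left out, 39 rose in CBPWT (6.96%) and 31 in CBPAA crypts (5.42%). Again 37 interactions were negative, against 7376 of 14752 genes. Of these 37, 23 had an unadjusted p under 0.05 (4.70% of all genes), and the list median was -0.555. With single libraries left out the median ranged from -0.78 to -0.357, the latter without CBPAAp53ΔIEC replicate 3, the p53-deleted library with the least Mki67. In bulk crypts a larger share of dividing cells and more of these RNAs per dividing cell cannot be told apart, and the same holds for the cell type lists that follow.

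Rrm2, the small subunit of ribonucleotide reductase, had 15.6, 8.85 and 11.3 CPM in CBPWTp53-floxed and 33.7, 41.5 and 51 CPM in CBPWTp53ΔIEC crypts. In CBPAA crypts it had 21.7, 20.8 and 16.8 CPM with p53 floxed and 37, 32 and 18.4 CPM with p53 deleted. It rose in CBPWT crypts (1.83, adjusted p = 0.017 from edgeR), the change in CBPAA crypts was 0.55 (adjusted p = 0.402), and the interaction was -1.28 (standard error 0.37). The CBPAA groups overlapped only through CBPAAp53ΔIEC replicate 3. Mcm6, a subunit of the replicative helicase that was chosen after its values were seen, had 24.9, 26.9 and 31 CPM in CBPWTp53-floxed and 54.6, 66.2 and 70.6 CPM in CBPWTp53ΔIEC crypts. It had 45.5, 35.6 and 40.5 CPM in CBPAAp53-floxed and 58.7, 61.3 and 35.5 CPM in CBPAAp53ΔIEC crypts. In both genes every CBPAAp53-floxed library lay above every CBPWTp53-floxed library, and the interaction of Mcm6 was -0.85 (standard error 0.26, unadjusted p = 0.00609). Dut and Ung, which keep uracil out of DNA, had interactions of -0.87 and -0.77.

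The promoters of these genes are known as sites of E2F and DREAM. Windows of 300 bases around the start, from 250 bases before it to 50 after it, were taken from RefSeq for GRCm38.p6 and searched on both strands. An E2F motif (TTTCCCGC, TTTCGCGC, TTTGCCGC or TTTGGCGC) was found in 12 of 37 windows of the replication genes (32.4%), of which 32 matched by name. It was found in 2.26% of all 32851 windows. The CHR motif TTTGAA, at which DREAM binds cell cycle genes, was found in 24 of 31 windows of 29 mitosis genes (77.4%) against 17.9% of all windows, and in 8.11% of the replication windows. E2F motifs were found in 3.23% of the mitosis windows. The motif CCAAT was in 51.4% of the replication, 74.2% of the mitosis and 37.4% of all windows. A match is a description of the letters and no measure of binding. Windows are shown for Rfc3 and Mcm6, with interactions of -0.84 and -0.85, and for Cdk1 and Plk1 of the mitosis genes, on the minus strand at chr5:151651159-151651458, chr1:128359656-128359955 and chr10:69352863-69353162 and on the plus strand at chr7:122159185-122159484. Capitals mark E2F and CHR matches, of which some in Mcm6 overlap each other.

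Rfc3: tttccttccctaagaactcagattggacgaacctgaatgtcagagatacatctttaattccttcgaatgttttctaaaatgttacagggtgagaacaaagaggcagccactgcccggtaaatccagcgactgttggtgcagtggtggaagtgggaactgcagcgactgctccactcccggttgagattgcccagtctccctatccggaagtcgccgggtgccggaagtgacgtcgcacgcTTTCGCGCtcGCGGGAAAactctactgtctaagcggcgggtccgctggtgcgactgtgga

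Mcm6: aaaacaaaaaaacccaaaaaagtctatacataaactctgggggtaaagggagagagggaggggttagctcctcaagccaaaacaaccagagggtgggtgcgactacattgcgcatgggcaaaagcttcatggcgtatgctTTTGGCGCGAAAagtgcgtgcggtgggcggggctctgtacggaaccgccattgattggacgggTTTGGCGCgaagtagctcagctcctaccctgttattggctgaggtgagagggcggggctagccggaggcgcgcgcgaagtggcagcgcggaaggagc

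Cdk1: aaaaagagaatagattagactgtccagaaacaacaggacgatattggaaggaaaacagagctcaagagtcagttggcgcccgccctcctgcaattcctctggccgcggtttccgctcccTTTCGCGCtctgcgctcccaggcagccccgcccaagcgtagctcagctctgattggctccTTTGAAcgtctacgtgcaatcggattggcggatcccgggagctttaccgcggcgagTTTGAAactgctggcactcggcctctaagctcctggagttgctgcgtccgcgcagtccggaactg

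Plk1: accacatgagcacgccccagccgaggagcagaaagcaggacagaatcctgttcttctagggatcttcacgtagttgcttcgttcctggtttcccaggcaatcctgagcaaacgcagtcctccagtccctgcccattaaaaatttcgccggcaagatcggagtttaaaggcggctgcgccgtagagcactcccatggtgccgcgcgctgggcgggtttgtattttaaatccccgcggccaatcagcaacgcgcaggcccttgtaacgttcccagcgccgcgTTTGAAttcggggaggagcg

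Genes of mitosis also had mostly negative interactions, with a wider spread between libraries. Of 35 genes 32 had a negative interaction, with a median of -0.442, but none had an unadjusted p under 0.05. The median response was 1.9 in CBPWT crypts, where 23 of 35 rose (2.29% of all genes), and 1.44 in CBPAA crypts, where none was called higher (0.00%). Leaving out the 3 small intestine libraries, all 35 rose in both genotypes (6.96% and 5.42% of all genes), all 35 interactions were negative, 15 at an unadjusted p under 0.05 (4.70%), and the median was -0.467. The median depended on single libraries, since it was -0.706 without CBPWTp53ΔIEC replicate 1, -0.0691 without CBPAAp53ΔIEC replicate 3, -0.228 without CBPWTp53ΔIEC replicate 2 and -0.294 without CBPAAp53-floxed replicate 1. Plk1, a kinase that drives entry into mitosis, had 5.3, 7.43 and 5.94 CPM in CBPWTp53-floxed, 16.5, 37.5 and 38.4 in CBPWTp53ΔIEC, 9.74, 6.87 and 6.86 in CBPAAp53-floxed and 28.6, 25.7 and 7.46 in CBPAAp53ΔIEC crypts. The low value in each ΔIEC group belonged to the library with the most defensin RNA of its group. The interaction was -0.91 (standard error 0.66) for Plk1, -0.89 for Birc5, a protein of the chromosomal passenger complex, -0.74 for Cdk1, the kinase that starts mitosis, and -0.24 for Mki67, a marker of dividing cells.

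Of 24 DNA repair and replication checkpoint genes 23 had a negative interaction, with a median of -0.553. In CBPWT crypts 12 rose (2.29% of all genes), with a median of 1.08, and in CBPAA crypts none was called higher (0.00%), with a median of 0.657. The interaction was negative at an unadjusted p under 0.05 in 4 genes (5.28%), among them Rpa1 and Rpa2 of the complex that coats single-stranded DNA (-0.57 and -0.84) and Timeless of the fork protection complex (-0.95). After removal of the 3 small intestine libraries all 24 were negative, 16 at an unadjusted p under 0.05 (4.70%), 21 rose in CBPWT (6.96%) and 12 in CBPAA crypts (5.42%), and the median was -0.613. It was -0.338 without CBPAAp53ΔIEC replicate 3. Rpa2 had 8.35, 9.85 and 7.5 CPM in CBPWTp53-floxed, 15.3, 17.5 and 20.2 in CBPWTp53ΔIEC, 11.1, 11.3 and 12 in CBPAAp53-floxed and 14.6, 15.7 and 9.32 in CBPAAp53ΔIEC crypts. As in Rrm2 and Mcm6, the CBPAAp53-floxed libraries lay above all CBPWTp53-floxed libraries and the CBPWTp53ΔIEC libraries above those of CBPAAp53-floxed crypts.

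The 6 genes called without the 3 small intestine libraries were Gm10736, Smim33, Nrp2, Tubb5, Tuba1b and Rrm1, of which the last 3 were chosen after their values were seen. Tubb5, a β-tubulin of the mitotic spindle, had 91.4, 91.8 and 90.4 CPM in CBPWTp53-floxed and 192, 297 and 298 CPM in CBPWTp53ΔIEC crypts. The CBPAA libraries had 136, 117 and 130 CPM with p53 floxed and 252, 235 and 113 CPM with p53 deleted. With all libraries the interaction was -0.88 (standard error 0.35, edgeR adjusted p = 0.482), and without the 3 it was -0.82 (adjusted p = 0.0233). Tuba1b, an α-tubulin, had -0.82 and -0.70 (adjusted p = 0.0463 without the 3). Rrm1, the large subunit of ribonucleotide reductase, had -0.79 and -0.82 (adjusted p = 0.0381 without the 3). Tubulin genes are close copies of each other, so that the counting could move reads between them. Cdk4, the partner of cyclin D, had 75.7 to 76.6 CPM in CBPWTp53-floxed, 87 to 95.8 in CBPAAp53-floxed, 102 to 103 in CBPWTp53ΔIEC and 81.8 to 99.4 in CBPAAp53ΔIEC crypts, and an interaction of -0.42 (unadjusted p = 0.00706).

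Over all genes, p53 deletion changed 460 of 14610 genes in CBPWT crypts (3.15%), 335 higher and 125 lower (0.856%), and 4 in CBPAA crypts (0.0274%), all lower. The 4 were Trp53, with -2.58, Ephx1, a p53 target that encodes epoxide hydrolase, with -1.93, Eda2r, a receptor gene induced by p53, and Gm10736. Of the 335 genes that rose in CBPWT crypts 315 had the same sign in CBPAA crypts, with a median of 0.56 against 1.24. Of the 125 that fell 105 had the same sign, with a median of -0.255 against -0.783. These genes were chosen on their CBPWT values, which favours a larger value there. The interaction contains the same values, so that the choice also favours a small p in it. Of the 335 and 125 genes, 122 and 60 had an interaction at an unadjusted p under 0.05, against 10.3% of all genes. Across 14610 genes, which are not independent replicates, the 2 responses correlated at r = 0.515 (Spearman's coefficient 0.285), and without the 3 small intestine libraries at r = 0.682 (Spearman's coefficient 0.608, 14535 genes). The 2 responses share no library.

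A call in one genotype and not in the other is no test of a difference, and both counts depended on single libraries. When the 3 small intestine libraries were left out, 1705 genes were called in CBPWT crypts, 1027 higher and 678 lower (4.60%), and 1324 in CBPAA crypts, 799 higher and 525 lower (3.56%). Without the 4 defensin libraries the counts were 1729 and 1053. The CBPWT count was 7, 2 and 1 without CBPWTp53-floxed replicates 1, 2 and 3, 7 and 4 without CBPWTp53ΔIEC replicates 2 and 3, 906 without CBPWTp53ΔIEC replicate 1, 735 without CBPAAp53ΔIEC replicate 3 and 253 without CBPAAp53-floxed replicate 3. The CBPAA count was 326 without CBPAAp53ΔIEC replicate 3, 2 without CBPAAp53-floxed replicate 3 and 1 without CBPAAp53ΔIEC replicate 1.

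**Figure D3:**
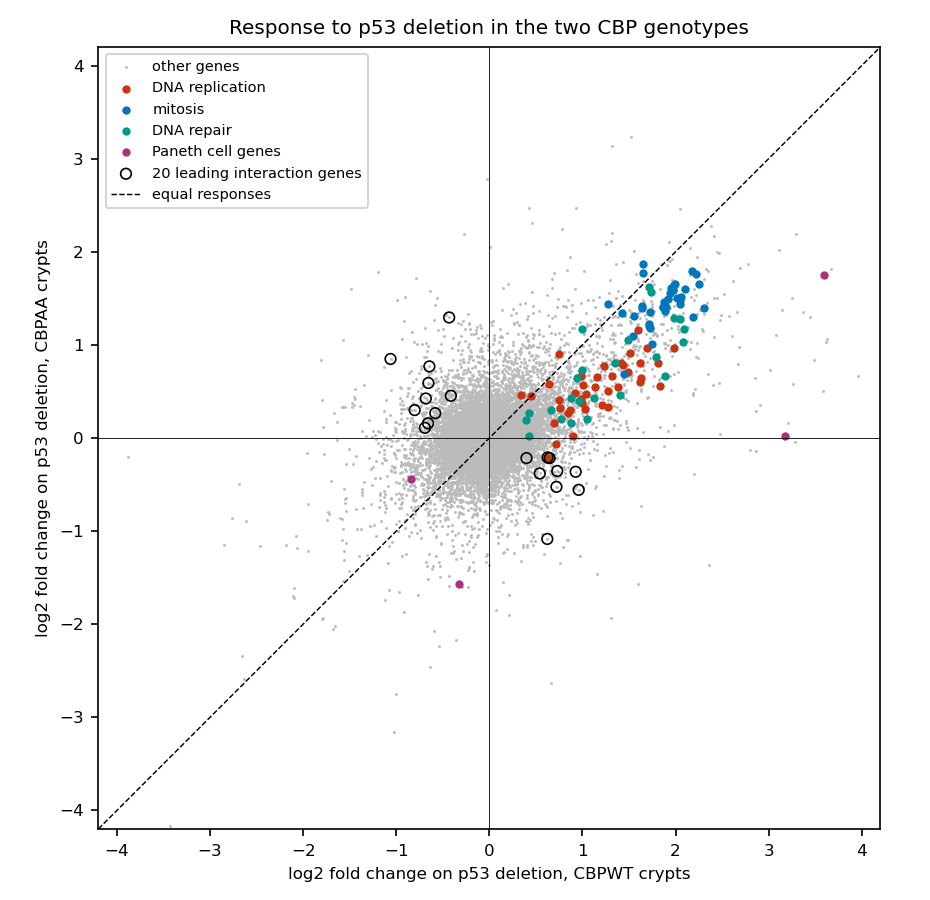
Log2 change on p53 deletion in CBPWT crypts (horizontal axis) and in CBPAA crypts (vertical axis), 1 point per gene, from all 12 libraries, with the line of equal response. Genes of replication, mitosis, DNA repair and Paneth cells are coloured and the 20 leading genes circled. Of 14610 genes 51 lie outside the axes and are not drawn. Replication genes lie mostly right of and below the line, with medians of 1.15 and 0.554.

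The interaction also varied with gene length. Across 14599 genes it correlated with exon length (Spearman's coefficient 0.348, a description over genes that share the same libraries). In 5 groups of genes of equal size, from the shortest to the longest exons, the median was -0.215, -0.143, -0.052, 0.0497 and 0.186. At an unadjusted p under 0.05 the group of the longest held 362 positive and 41 negative genes, and that of the shortest 54 and 228. Leaving out the 3 small intestine libraries, this coefficient was 0.114 and the medians ran from -0.039 to 0.0559, and with an offset for length in each library, added after seeing the data, it was 0.0122. After subtraction of the median of its length group from each gene, the list median was -0.641 for replication, -0.422 for mitosis and -0.618 for DNA repair. For the ribosomal protein genes and the oxidative phosphorylation genes, both with short exons, it was -0.0641 and -0.0986.

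**Figure D4:**
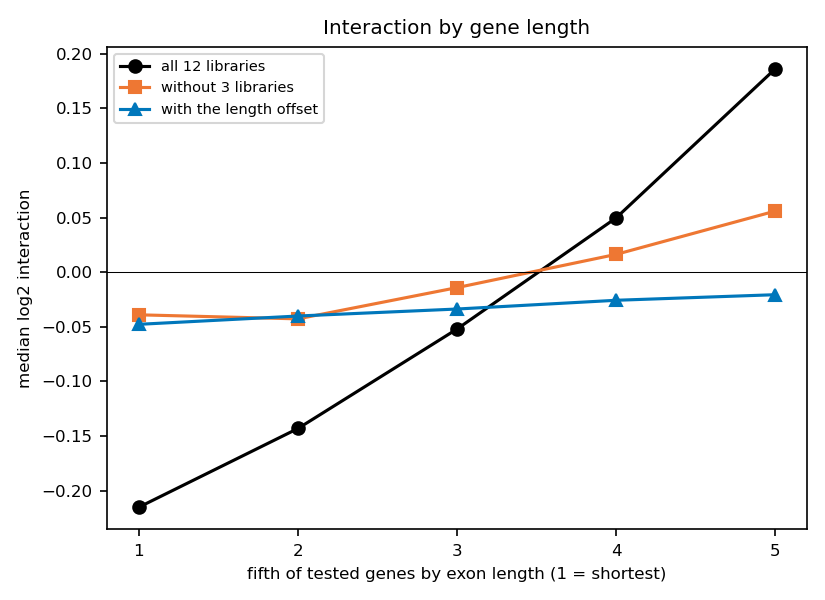
Median log2 interaction (vertical axis) of the genes tested in 5 groups of equal size by exon length (horizontal axis, shortest to longest), with all 12 libraries, without the 3 small intestine libraries and with an offset for gene length. With all libraries the medians run from -0.215 to 0.186, and without the 3 from -0.039 to 0.0559.

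Of 80 genes of oxidative phosphorylation 75 had a negative interaction with a median of -0.258, and 9 negative genes had an unadjusted p under 0.05 (5.28% of all genes), which became 2 without the 3 small intestine libraries (4.70%). Examples are Ndufs5 and Ndufb7 of complex I, with -0.69 and -0.54, and Atp5me of the ATP synthase, with -0.55. Of 76 ribosomal protein genes 74 were negative, with a median of -0.254, and only Rps2 had an unadjusted p under 0.05 (-0.45). Both medians were much nearer 0 without the 3 small intestine libraries, at -0.0639 and -0.0103, with 54 of 80 and 42 of 76 negative. Without CBPAAp53-floxed replicate 2 alone the median of the oxidative phosphorylation genes was -0.124. The 12 general epithelial genes were likewise all negative, with a median of -0.365, and of -0.158 without the 3.

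Direct targets of p53 were read for a response that differed between the genotypes. Of 29 such genes tested, 13 had a positive and 16 a negative interaction, with a median of -0.052. On p53 deletion 8 of them fell in CBPWT (0.856% of all genes) and 2 in CBPAA crypts (0.0274%), and without the 3 small intestine libraries 9 fell in each (4.60% and 3.56%). Ephx1 had 15.4, 14.6 and 14.3 CPM in CBPWTp53-floxed, 13.8, 18.1 and 20.9 in CBPAAp53-floxed, 3.36, 4.31 and 5.02 in CBPWTp53ΔIEC and 4.6, 5.87 and 3.38 in CBPAAp53ΔIEC crypts, with an interaction of -0.14 (standard error 0.30). Eda2r had 1.36 to 2.59 CPM in the p53-floxed and 0 to 0.145 CPM in the ΔIEC libraries of either genotype, at which level no ratio between genotypes can be read. Cdkn1a, the p21 gene, was at 171 to 301 CPM in all libraries, with changes of -0.02 in CBPWT and -0.22 in CBPAA crypts and an interaction of -0.20 (standard error 0.28, adjusted p = 0.79 from edgeR).

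In 3 of the 29 target genes the interaction had an unadjusted p under 0.05, a share like that of all genes (10.3%), and their values are given as a description. Trp53inp1, which acts in p53-dependent cell death and autophagy, had a mean of 150 CPM ± 3.5 (SD, n = 3) in CBPWTp53-floxed and 73.7, 91 and 83.9 CPM in CBPWTp53ΔIEC crypts. In CBPAA crypts it had 144, 81.1 and 125 CPM with p53 floxed and 98.5, 90.6 and 111 CPM with p53 deleted. It fell in CBPWT crypts (-0.86, adjusted p = 0.0285 from edgeR), and the interaction was 0.64, or 0.28 without the 3 small intestine libraries, of which CBPAAp53-floxed replicate 2 held the low value of its group. Rrm2b, the p53-induced subunit of ribonucleotide reductase, fell in CBPWT crypts by 0.82 on the log2 scale (adjusted p = 0.0349), and its change in CBPAA crypts was -0.05, an interaction of 0.77, or 0.53 without the 3. Pmaip1, which encodes the pro-apoptotic protein Noxa, had changes of 0.09 and -0.58 and an interaction of -0.67.

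Of 17 genes of histone acetyltransferases, IKK kinases and NF-κB subunits 11 had a positive interaction, with a median of 0.125. Of these Ep300, which encodes the CBP paralog p300, had 0.84 (unadjusted p = 0.00557), and the acetyltransferases Kat6a and Kat6b 0.69 and 0.49. Ep300 had 99.1, 111 and 112 CPM in CBPWTp53-floxed, 62.1, 77.6 and 86.2 in CBPWTp53ΔIEC, 96.9, 55.2 and 81.6 in CBPAAp53-floxed and 97.5 ± 10.7 (mean ± SD, n = 3) in CBPAAp53ΔIEC crypts. The lowest library, CBPAAp53-floxed replicate 2, was again one of the 3 small intestine libraries, and without them the interactions of these genes were 0.43, 0.32 and 0.17. With the length offset they were 0.56, 0.54 and 0.16. NF-κB target genes had a median of -0.259, with 15 of 21 negative, and of -0.133 without the 3 small intestine libraries and -0.121 without CBPWTp53ΔIEC replicate 3 alone. In the MYC network, 4 of 13 genes had a positive interaction at an unadjusted p under 0.05 (5.00% of all genes). They were the repressors Mga (0.76) and Mxd4 (0.44), the glucose sensor Mlxip (0.59) and Mycn (0.90), at a list median of -0.037. Without the 3 small intestine libraries Mga had 0.36 and Mlxip 0.32, and without the 4 defensin libraries 1 of the 13, Mxd4, was left at this p.

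Vcan, which encodes the matrix proteoglycan versican, had 3.05, 4.54 and 3.89 CPM in CBPWTp53-floxed and 2.05, 3.68 and 4.02 CPM in CBPWTp53ΔIEC crypts. In CBPAA crypts it had 1.36, 1.24 and 1.69 CPM with p53 floxed and 3, 4.78 and 2.97 CPM with p53 deleted. The CBPAA groups did not overlap and the CBPWT groups did. The responses were 1.33 in CBPAA (adjusted p = 0.32 from edgeR) and -0.23 in CBPWT crypts (adjusted p = 0.686). The interaction was 1.56 (standard error 0.42, unadjusted p = 0.00258, adjusted p = 0.482), and over the alternatives run it lay between 1.26 and 1.73, with an adjusted p of 0.147 to 0.754. Among 12 genes of versican and chondroitin sulfate the median was -0.02, and no other member had an unadjusted p under 0.05. Clec16a, a regulator of mitophagy, had 24.9 to 25.9 CPM in CBPWTp53-floxed and 18.8 to 23.4 in CBPWTp53ΔIEC crypts, against 42.2 to 46.1 in CBPAAp53-floxed and 36.1 to 43.1 in CBPAAp53ΔIEC crypts. The CBP genotypes did not overlap with or without p53, and the interaction was 0.12 (standard error 0.15). Clec16a lies on chr16:10545339-10744878, on the chromosome of the targeted Crebbp gene (chr16:4081328-4213997). Whether DNA linked to the knock-in allele plays a part in its level was not tested.

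Genes of laminin and of hemidesmosomes, which anchor the epithelium to its basement membrane, had a median interaction of 0.13 over 14 genes, 12 of them positive and 3 of these at an unadjusted p under 0.05 (5.00% of all genes). With the length offset the median was 0.00912, 8 were positive and none had this p, and with each library left out it ranged from 0.012, without CBPAAp53ΔIEC replicate 3, to 0.238, without CBPAAp53ΔIEC replicate 1. Lama3, the α chain of laminin-332, had 41.1, 45.4 and 40 CPM in CBPWTp53-floxed and 27.6, 16.9 and 16.5 CPM in CBPWTp53ΔIEC crypts. With CBPAA it had 19.2, 18.8 and 23.4 CPM with p53 floxed and 15.4, 15.3 and 26.9 CPM with p53 deleted. All 9 libraries of the other groups lay below the CBPWTp53-floxed libraries. Lama3 fell in CBPWT crypts (-1.06, adjusted p = 0.0342 from edgeR), its change in CBPAA crypts was -0.09, and the interaction was 0.97 (standard error 0.33), or 0.88 without the 3 small intestine libraries (adjusted p = 0.0849). Dst, a linker of hemidesmosomes with long exons, had an interaction of 0.77, which was 0.18 with the length offset. Lamc1, a laminin γ chain, had 0.49 and 0.33 with the offset.

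Genes of Notch signalling and of the secretory lineage had a median interaction of 0.302 over 12 genes. Of these 9 were positive, and Notch1, Dll1 and Gfi1 had an unadjusted p under 0.05 (5.00% of all genes). The other 3 were negative, among them Nrarp with -0.50 (standard error 0.25). Notch1, a receptor that keeps crypt cells from the secretory fate, had 40.4, 45.2 and 47.5 CPM in CBPWTp53-floxed, 21.4, 41.3 and 48.4 in CBPWTp53ΔIEC, 34.1, 23.5 and 31.2 in CBPAAp53-floxed and 49.9, 53.5 and 43.3 in CBPAAp53ΔIEC crypts. The CBPAA groups did not overlap, and the CBPWT groups did. The interaction of Notch1 was 0.98 (standard error 0.33), that of Dll1, a Notch ligand of secretory progenitors, 0.96 and that of Gfi1, a transcription factor of secretory cells, 1.02. With the 3 small intestine libraries left out they were 0.66, 0.79 and 0.91, with a list median of 0.316. Without CBPWTp53ΔIEC replicate 1 alone the list median was 0.0347.

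Of 22 enteroendocrine genes 17 had a positive interaction, with a median of 0.213 and 1, Neurod1, at an unadjusted p under 0.05 (5.00% of all genes). Without the 3 small intestine libraries 21 were positive, with a median of 0.63 and 8 at this p (4.64%). Neurod1, a transcription factor of this lineage, had 4.49, 4.78 and 4.89 CPM in CBPWTp53-floxed and 3.36, 4.37 and 3.41 CPM in CBPWTp53ΔIEC crypts. In CBPAA crypts it had 2.04, 2.98 and 1.96 CPM with p53 floxed and 5.71, 4.63 and 3.94 CPM with p53 deleted. Each pair of groups was without overlap, in opposite directions. The interaction was 1.35 (standard error 0.32, unadjusted p = 0.000958), and 1.65 without the 3 (adjusted p = 0.0891 from edgeR). The exons of Neurod1 overlap those of Cerkl on the same strand. Rfx6 and Nkx2-2, other transcription factors of the lineage, had 0.84 and 0.88, and Tph1, the enzyme of serotonin synthesis in enterochromaffin cells, 0.47, with larger standard errors for their size (0.50, 0.64 and 0.32). The list median was 0.0919 without CBPAAp53ΔIEC replicate 1, 0.118 without CBPAAp53-floxed replicate 1, 0.123 without CBPAAp53ΔIEC replicate 2, 0.124 without CBPWTp53ΔIEC replicate 1, 0.417 without CBPAAp53ΔIEC replicate 3 and 0.456 without CBPAAp53-floxed replicate 2.

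Other lineages had medians near that of all genes. Over 21 stem cell and Wnt genes the median was -0.00363, with none at an unadjusted p under 0.05, and Lgr5, the marker of crypt base stem cells, had an interaction of 0.20 (standard error 0.18). The medians were -0.097 over 18 goblet cell genes, -0.004 over 17 tuft cell genes and -0.103 over 26 colonocyte genes. Dclk1, a kinase that marks tuft cells, had 0.60, or 0.31 with the length offset, and Krt18, a keratin of simple epithelia, -0.58.

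Gasdermin C genes, which encode pore-forming proteins of intestinal epithelium, had negative interactions. The list of gasdermins and of genes of type 2 immunity had 8 members tested, all negative, with a median of -0.85, or -0.468 with DESeq2. Gsdmc4 had 449, 374 and 462 CPM in CBPWTp53-floxed, 643, 918 and 842 in CBPWTp53ΔIEC, 876, 619 and 1060 in CBPAAp53-floxed and 965, 632 and 699 in CBPAAp53ΔIEC crypts. The 3 CBPWTp53-floxed libraries lay below all others. It rose in CBPWT crypts (0.90, adjusted p = 0.0385 from edgeR), with -0.16 in CBPAA crypts (adjusted p = 0.768) and an interaction of -1.06 (standard error 0.30). Gsdmc2 had 292, 231 and 294 CPM in CBPWTp53-floxed, 451, 422 and 473 in CBPWTp53ΔIEC, 602, 513 and 783 in CBPAAp53-floxed and 526, 283 and 510 in CBPAAp53ΔIEC crypts, with an interaction of -1.25 (standard error 0.30). Without the 4 defensin libraries Gsdmc2, Gsdmc4 and Gsdmc3 were called at -2, -1.65 and -1.12 (adjusted p = 0.0053, 0.0053 and 0.0371), where CBPAAp53ΔIEC is a single library. The Gsdmc genes are close copies of each other, so that reads could be moved between them. Gsdmd, the gasdermin of inflammasome signalling, had -0.49, or -0.23 without the 3 small intestine libraries.

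Of 16 mucosal defence genes 14 were negative, with a median of -0.731, or -0.121 without the 3 small intestine libraries and 0.0257 without CBPWTp53ΔIEC replicate 1 alone. Duoxa2, a maturation factor of the oxidase Duox2, had -1.65, which followed 68.3 CPM in CBPWTp53ΔIEC replicate 1 against 13.8 to 31.6 CPM in the other libraries, and -0.89 without the 3. The small proline-rich genes Sprr2a1 and Sprr2a3, which share sequence with close copies, had -0.59 and -0.73. Interferon-induced genes had a median of -0.073 over 31 genes. At an unadjusted p under 0.05, 3 were positive (5.00% of all genes) and 1 negative (5.28%). The positive genes Ifi44, Oas2 and Oasl2, of the type I interferon response, had 1.81, 1.45 and 1.12, with standard errors of 0.53, 0.50 and 0.46. The transcription factor Irf1 had -0.67. Without the 3 small intestine libraries only Ifi44 was positive (4.64%) and only Mx1, another member, negative (4.70%) at this p. Ifi44 had 3.59, 5.78 and 2.94 CPM in CBPWTp53-floxed, 1.59, 1.58 and 1.34 in CBPWTp53ΔIEC, 6.42, 3.21 and 2.67 in CBPAAp53-floxed and 3.76, 7.39 and 4.63 in CBPAAp53ΔIEC crypts. Its CBPWT groups were without overlap and its CBPAA groups overlapped.

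Targets of NRF2, the factor of the antioxidant response, had a median of -0.428 over 20 genes, 18 of them negative and 6 of these at an unadjusted p under 0.05 (5.28% of all genes). With p53 deleted 5 of the 20 rose in CBPWT crypts (2.29%) and none was called higher in CBPAA crypts (0.00%). Gpx2, the intestinal glutathione peroxidase, had 252, 257 and 201 CPM in CBPWTp53-floxed, 475, 451 and 435 in CBPWTp53ΔIEC, 318, 280 and 370 in CBPAAp53-floxed and 436, 383 and 251 in CBPAAp53ΔIEC crypts, with an interaction of -0.80 (standard error 0.25). The 3 CBPWTp53ΔIEC libraries were separate from CBPWTp53-floxed, and the CBPAA groups overlapped through CBPAAp53ΔIEC replicate 3. Tkt and G6pdx of the pentose phosphate pathway had -0.49 and -0.53, and Osgin1, a gene induced by oxidative stress, -0.57. The list median without the 3 small intestine libraries was -0.203, with 4 negative genes at an unadjusted p under 0.05 (4.70%).

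Genes of the endoplasmic reticulum and its stress response had a median of -0.141 over 25 genes, 5 negative at an unadjusted p under 0.05 (5.28% of all genes) and 8 without the 3 small intestine libraries (4.70%). Dnajb11, a chaperone of the lumen, had -0.52, Pdia3, a disulfide isomerase, -0.43 and Asns, asparagine synthetase, -0.61, while the stress sensor Ern1 had 0.92, or 0.46 without the 3. Of 30 genes of sterol and lipid synthesis 26 were negative, with a median of -0.194. They rose in both genotypes without the 3 small intestine libraries, 23 in CBPWT (6.96%) and 16 in CBPAA crypts (5.42%), and 5 rose in CBPWT crypts with all libraries (2.29%). Fdps, farnesyl diphosphate synthase, had 4.13, 3.71 and 3.89 CPM in CBPWTp53-floxed, 8.68, 9.57 and 11.2 in CBPWTp53ΔIEC, 8.53, 4.9 and 6.78 in CBPAAp53-floxed and 8.36, 8.55 and 4.63 in CBPAAp53ΔIEC crypts. The CBPWTp53-floxed libraries lay below all others, and the interaction was -1.23 (standard error 0.36), or -1.26 without the 3 (adjusted p = 0.0891 from edgeR). Insig1, a sterol sensor, had -0.64. The sterol list median was -0.022 without CBPAAp53ΔIEC replicate 3, -0.442 without CBPAAp53ΔIEC replicate 2, -0.0768 without CBPWTp53ΔIEC replicate 3, -0.345 without CBPWTp53ΔIEC replicate 1, -0.114 without CBPAAp53-floxed replicate 1 and -0.057 without the 4 defensin libraries.

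Over 11 genes of EGF receptors and their growth factors the median was 0.00832. At an unadjusted p under 0.05, Hbegf and Areg had -1.05 and -1.17 (5.28% of all genes) and Btc 0.52 (5.00%). Over 19 immediate early genes the median was -0.222, and Jund had -0.62 and Atf3 -1.14 at this p (5.28%). Without the 3 small intestine libraries these genes had -0.66, -0.87, 0.40, -0.34 and -1.19, in this order. Of them only Jund kept an unadjusted p under 0.05. Ppara, the nuclear receptor of fatty acid oxidation, had 1.21, or 0.69 without the 3, and Dhrs9, a retinol dehydrogenase, 0.77 or 0.56.

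**Figure D5:**
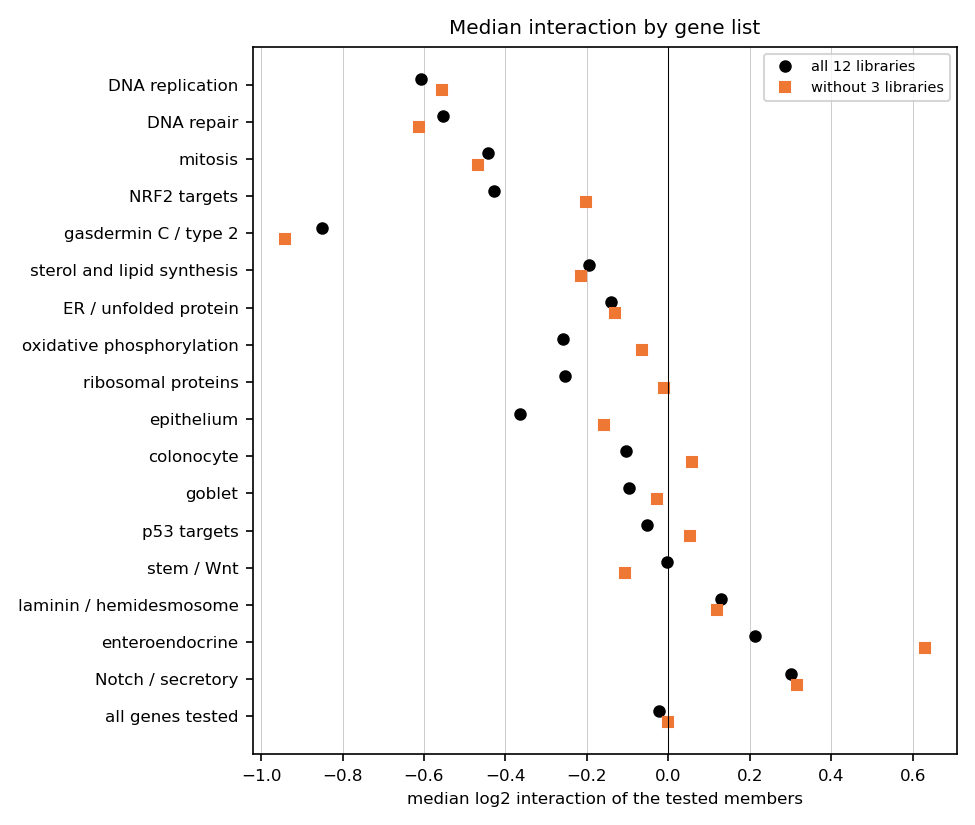
Median log2 interaction (horizontal axis) of 18 gene lists with all 12 libraries and without the 3 small intestine libraries. Replication, mitosis and DNA repair stay between -0.613 and -0.442 in both, while oxidative phosphorylation and ribosomal protein genes move from -0.258 and -0.254 to -0.0639 and -0.0103.

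Genes of the small intestine and of antigen presentation followed single libraries. Of 28 small intestine enterocyte genes 25 had a negative interaction, with a median of -0.922, and without the 3 libraries 3 of 25 did, with a median of 0.798. H2-Ab1, a chain of MHC class II, had 6.56, 5.37 and 7.66 CPM in CBPWTp53-floxed, 46.2, 50 and 7.67 in CBPAAp53-floxed, 124, 5.96 and 7.83 in CBPWTp53ΔIEC and 33.6, 8.76 and 53.4 in CBPAAp53ΔIEC crypts. It was thus high in 5 libraries of 3 groups, 4 of them those with defensin RNA and the other CBPAAp53-floxed replicate 1. Each of these 3 groups also held a library at 8.76 CPM or less, while all CBPWTp53-floxed libraries were at 5.37 to 7.66 CPM. All 7 MHC class II genes tested had a negative interaction, and without the 3 libraries 3 of 7 did, with a median of 0.0194. The summed TPM of 25 leukocyte genes was highest in CBPAAp53ΔIEC replicate 3 (56), CBPAAp53-floxed replicate 2 (44.6) and CBPAAp53ΔIEC replicate 1 (42.2), all with high H2-Ab1. In the other libraries with high H2-Ab1 it was 32.8 (CBPWTp53ΔIEC replicate 1) and 27 (CBPAAp53-floxed replicate 1). A part of leukocytes in the MHC class II values was not tested.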

How the data were processed

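RNA of colonic crypts was sequenced in 12 libraries, 3 in each of 4 groups taken from the labels. The authors deposited 1 table with raw read counts per gene and TPM for each library, and 15 columns of their own fold changes and p-values, which were not used. The submitters' processing notes name fastp 0.20.0, FastQC 0.11.9, HISAT2 2.1.0, SAMtools 1.9, featureCounts of Subread 2.0.1 and the build GRCm38, without their order. The library kit of the labels keeps strand, and the strand setting of the counting is not given in the sources used here. Without strand, reads of overlapping genes cannot be told apart. Overlaps not given above include exons of Notch1, Cdk4, Cdkn1a and Plk1, which overlap genes on the opposite strand. Exons of Ep300, Rpa1 and Ephx1 overlap a gene on the same strand. TPM, which the authors deposited, served for summed markers only.

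Deposited counts were filtered with filterByExpr (minimum count 10), scaled by TMM and tested by quasi-likelihood in edgeR 4.0.16 (R 4.3.3, robust) with 1 coefficient for each of the 4 groups over all 12 libraries. The contrasts were p53 deletion in CBPWT crypts, p53 deletion in CBPAA crypts and the difference of both. Adjusted p-values are Benjamini-Hochberg over all genes tested, the cutoff was an adjusted p under 0.05 and a log2 value above 0.5 in size, and the standard error was taken from the F statistic. Tests are two-sided. Replicates are separate mice. The totals of reads limit the precision of low genes, for which the CPM is given.

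Named genes were up to 10 in each direction that passed the cutoff in the interaction, filled up to 10 with the smallest p among genes of at least 1 CPM on average, up to 4 members with the smallest p of each of 47 gene lists, and 9 genes: Trp53, Crebbp, Vcan, Cdkn1a, Ephx1, Eda2r, Mki67, Lgr5 and Clec16a. The genes, the comparison and the lists were chosen with earlier results of these data known. Lists are described by counts and medians with no test of the list. Alternatives were DESeq2 size factors, DESeq2 1.42.0, limma 3.58.1 voomWithQualityWeights, no filter, at least 10 counts in every sample, no fold cutoff, the replicate number as a block and each library left out. Settings without 3 or 4 libraries and with an offset for gene length (exon length of GENCODE M21) were added after seeing the data. The edgeR, DESeq2 and limma fits were also run on simulated counts with known interactions. The simulation held no small intestine RNA and no trend with gene length, and is no check of the fits on such data. Figures were drawn with matplotlib 3.10.9.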

Additional observations from a re-analysis of the deposited data

Results flagged for a closer look

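The response of Gm10736 to p53 deletion differed between the CBP genotypes by a test of the difference itself (interaction -1.71 on the log2 scale, adjusted p = 0.0222 from edgeR), with 10.4 to 11.3 CPM in CBPWTp53-floxed and 10.1 to 11 CPM in CBPAAp53ΔIEC crypts against 14.8 to 26.7 CPM in the other 6 libraries. It was higher on deletion in CBPWT and lower in CBPAA crypts in all libraries, and its identity to part of Rpl41 leaves the source of its reads uncertain. No group had 4 or more samples, so that single samples were not screened for outliers.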

How the results depend on the processing

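The counts of genes at the cutoff depended on the tool and on single libraries, while no leading gene changed sign under the alternatives run. For the interaction (1 gene) the count was 30 with DESeq2, 2 with limma, 2 with no filter, 0 with the replicate number as a block, 35 without the 4 defensin libraries, 6 without the 3 small intestine libraries, 36 with the length offset and without the 4, and 0 to 1 with each library left out. For p53 deletion in CBPWT crypts (460) it was 863 with DESeq2, 1713 with limma, 32 with the block, 1729 without the 4, 1705 without the 3, 1737 with the offset and without the 4, and 1 to 906 with each library left out. For CBPAA crypts (4) it was 73 with DESeq2, 417 with limma, 11 with no filter, 2 with the block, 1053 without the 4, 1324 without the 3, 1098 with the offset and without the 4, and 1 to 326 with each library left out. The replicate numbers did not pair the samples: 3 of 18 same-numbered pairs correlated above 0.1, and 3 of 12 samples correlated best with their own number. Signs changed for some interactions, where the value of the other sign had an adjusted p of at least 0.841. Without the 4 libraries, without the 3, with the length offset, and with the offset and without the 4, in this order, values of the other sign were 0.131, 0.0177 and 0.137 for Cdkn1a (not with the offset alone), 0.11, 0.00019 and 0.161 for Ephx1 (not without the 3), -0.0155, -0.0127 and -0.107 for Lgr5 (not without the 3), 0.0395, 0.101, 0.0526 and 0.098 for Rpl41, and -0.0417, -0.0454 and -0.0179 for Clec16a (not without the 4). With limma they were -0.0677 for Eda2r, -0.0216 for Clec16a and 0.0387 for Rpl41. With each library left out, the ranges that crossed 0 were -0.376 to 0.0549 for Cdkn1a, -0.346 to 0.0417 for Ephx1, -0.564 to 0.113 for Mki67, -0.271 to 0.0117 for Rpl41 and -0.147 to 0.425 for Trp53. The causes were not tested. With 3 libraries per group, differences within the spread between mice were not detectable.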
